A study of Drosophila melanogaster with 12 samples.

Results

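Head transcripts collected on the second day of constant temperature were set against those collected at the same times of the first day, within the subjective cryophase, the part of the day that had been cold during entrainment. The comparison rests on 6 of the 12 arrays of the time course: AA26, AA30 and AA34 of day 2, and AA2, AA6 and AA10 of day 1, where AA gives the hours since the onset of the first subjective cryophase. The arrays form 3 pairs by time of day, at 2, 6 and 10 h. All flies were of the cn bw strain, which carries mutations in the eye colour genes cinnabar and brown. They were reared in darkness at 25 °C, spent more than 4 days in a cycle of 12 h at 18 °C and 12 h at 25 °C, and were then held at 25 °C, still in darkness. Day 2 flies had therefore spent a further day without temperature cues, and were a day older, than day 1 flies. These differences, and any other difference between the collection days, cannot be told apart in this design. Each array measured RNA pooled from about 100 to 200 heads, and the labels give neither the sex of the flies nor a separate rearing for each collection.

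In constant darkness and at constant temperature, daily rhythms are carried by the circadian clock, in which the transcription factors Clk and cyc switch on per, tim, vri and Pdp1 and the proteins made from these genes feed back on the activity of CLK and CYC or on the transcription of Clk. A fly head holds brain, glia, photoreceptors, muscle, cuticle and a layer of fat body, the insect counterpart of liver and adipose tissue. The fat body of the head makes yolk proteins, immune peptides and a number of secreted proteins that differ between the sexes.

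Levels are given on the log2 scale of the deposited values, so that a difference of 1 is a doubling, and a difference is day 2 minus day 1 averaged over the 3 pairs. A probe set, the group of array probes that reports on a transcript, was tested when more than 50% of its 12 values lay above the 20th percentile of their array, which kept 11156 of 13966 probe sets. The array AA46, whose mean correlation with the others was 0.989 against 0.994 to 0.996 for the rest, belongs to the thermophase and is not among the 6 arrays compared here, but it entered the filter, the means over all arrays, the fit of the thermophase and the comparison between phases. The differences of the 2 h and 6 h pairs correlated at 0.46 across probe sets, those of the 2 h and 10 h pairs at 0.11 and those of the 6 h and 10 h pairs at 0.22. The control ratios of 3′ over 5′ signal, which reflect RNA and cRNA length, differed between the days in a way that depended on the hour. For actin this log2 ratio was 2.61, 2.70 and 2.39 at AA26, AA30 and AA34, against 2.10, 2.21 and 2.69 at AA2, AA6 and AA10. It was thus higher on day 2 at 2 and 6 h and lower at 10 h, and the ratios for eIF-4a and GAPDH had the same signs. Their part in the results below was not tested.

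Few probe sets were called different between the days, and most of those called were lower on day 2. With 3 pairs, a transcript that was not called may still differ. limma, with time of day as a block and Benjamini-Hochberg adjustment over all tested probe sets, called 40 probe sets (0.359%) at an adjusted p under 0.05. Of these, 34 (0.305%) fell and 6 (0.0538%) rose on day 2. The falls ranged from 0.35 to 2.44 on the log2 scale and the rises from 0.39 to 0.67. Before adjustment, 793 probe sets (7.11%) were lower and 774 (6.94%) higher at a p under 0.05, numbers that are nearly even. Over all tested probe sets the median difference was -0.0033, and 51.6% of the differences were below 0. In a bulk head sample, fewer cells of a type and less RNA per cell cannot be told apart. Of all tested probe sets, 18.7% were above 0 in each of the 3 pairs and 17.1% below 0 in each. The number of calls depended on the pairs. Without the 6 h pair, limma called 5 falls and no rise (445 lower and 263 higher at an unadjusted p under 0.05), whereas without the 2 h pair there were 63 falls and 23 rises and without the 10 h pair 608 falls and 342 rises. Each of these fits has 1 residual degree of freedom, so its p-values rest largely on the spread borrowed from other probe sets. These counts are not on the same footing as the 34 and 6. All 40 called probe sets kept the sign of their difference without each pair in turn, and 5 of them kept the call each time, namely fit, Obp99a, DptB, Tim9a and a probe set with no gene name.

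**Figure D1:**
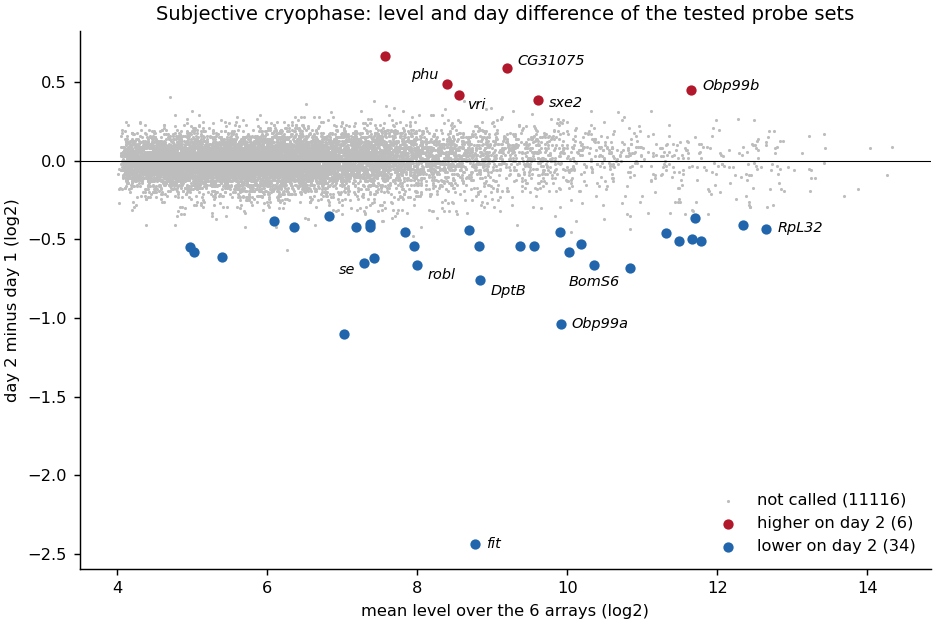
Day difference (day 2 minus day 1, log2, vertical axis) against mean level over the 6 cryophase arrays (log2, horizontal axis) for each tested probe set. Red points mark the 6 probe sets that rose on day 2 and blue points the 34 that fell, and grey points the rest. The gene fit lies far below all others at -2.44.

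The largest change was in fit (female-specific independent of transformer), which encodes a small secreted protein made in fat body and far more abundant in females. Its level was 7.46, 8.56 and 6.64 at AA26, AA30 and AA34, against 9.76, 10.52 and 9.68 at AA2, AA6 and AA10. The days did not overlap, and on each day the 6 h array was the highest of the 3. fit fell by 2.44 on the log2 scale (SE 0.15), so that day 1 heads held 5.41 times the level of day 2 heads (limma adjusted p = 0.000238). The difference was -2.30 in the 2 h pair, -1.96 in the 6 h pair and -3.05 in the 10 h pair.

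Other products of the fat body that are biased to females were nearer to equal. The yolk protein gene Yp2 had levels of 13.51, 13.81 and 13.41 on day 2, against 13.80, 13.88 and 13.73 on day 1 (difference -0.22, adjusted p = 0.197), and Yp3 differed by -0.18 (adjusted p = 0.276) and Yp1 by -0.09 (adjusted p = 0.532). The values of Yp2 overlap between the days, and neither it nor the other yolk protein genes passed the test. The 5 fat body markers, fit included, were all below 0 in their day difference, and their summed level lay between 15.43 and 15.71 on day 2, against 15.67 and 15.77 on day 1. The gene dsx, the switch between male and female differentiation, was chosen after its values were seen. Its levels were 5.08, 5.48 and 4.72 on day 2, against 5.32, 5.87 and 5.08 on day 1 (difference -0.33, adjusted p = 0.0628). The sex-determination genes Sxl and tra, chosen in the same way, differed less, by -0.21 (limma adjusted p = 0.328) and -0.04 (limma adjusted p = 0.846). The share of females in each collection is not given in the labels, and its part in these differences was not tested.

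sxe2, a lipase-family gene known for a sex-biased level in the fat cells of the fly head, was higher on day 2. The direction of that bias is not given by these data, so its rise cannot be read as a contrast to the falls above. sxe2 had levels of 9.74, 9.67 and 10 on day 2, against 9.33, 9.23 and 9.66 on day 1. The lowest day 2 value was just above the highest of day 1, and sxe2 rose by 0.39 (SE 0.06, adjusted p = 0.0211). Cyp4d21, also named sxe1, belongs to the same group of sex-biased head genes and differed by 0.13 (adjusted p = 0.421). The list labelled yolk and female-biased fat body also holds sxe2, and its label does not give the sex bias of that gene. In this list 1 of 15 tested members rose (sxe2) and 1 fell (fit), with a median difference of -0.05. Of all tested probe sets 0.0538% rose and 0.305% fell.

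Odorant-binding proteins are small secreted carriers found in the fluid of olfactory and taste hairs and, for some members, in fat body and hemolymph. Of 27 tested members 3 fell and 1 rose, with a median difference of -0.06. Of all tested probe sets 0.305% fell and 0.0538% rose, and their median difference was -0.0033. Obp99a had levels of 9.87, 9.69 and 8.63 on day 2, against 10.91, 10.44 and 9.97 on day 1. It declined over the cryophase on both days without overlap between them, and fell by 1.04 on day 2 (SE 0.09, adjusted p = 0.00283), the second largest fall of a named gene. Without the block for time of day it was not called (adjusted p = 0.158). Obp18a, at 9.09, 9.13 and 9.09 on day 2 against 9.70, 9.67 and 9.55 on day 1, fell by 0.54 (adjusted p = 0.00497), and Obp57c fell by 0.40 (adjusted p = 0.0211). Obp99b, whose transcript is also known from the fat cells of the head, moved in the opposite direction to Obp99a. Its levels were 11.85, 11.82 and 11.96 on day 2, against 11.39, 11.40 and 11.52 on day 1, a rise of 0.45 (SE 0.06, adjusted p = 0.00932). Both groups of 3 were tight, with SDs of 0.07 on day 2 and 0.07 on day 1.

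Among the antimicrobial and immune-induced peptides, 2 of 19 tested members fell and none rose, and the median difference was 0.00. The share of all tested probe sets that fell was 0.305%. DptB encodes Diptericin B, a peptide active against Gram-negative bacteria and a target of the Imd pathway. Its levels were 8.32, 8.79 and 8.27 on day 2, against 9.05, 9.38 and 9.23 on day 1, and it fell by 0.76 (SE 0.07, adjusted p = 0.00283). BomS6 encodes a short Bomanin, a family of peptides made under control of the Toll pathway. It had levels of 10.12, 10.05 and 9.91 on day 2, against 10.68, 10.66 and 10.73 on day 1, and fell by 0.66 (adjusted p = 0.00283). For both genes every day 2 array lay below every day 1 array. Other Bomanins had differences of either sign and did not pass the test: BomBc2 was at 0.32 (adjusted p = 0.0628), BomS2 at 0.23 (adjusted p = 0.191), BomT2 at 0.18 (adjusted p = 0.242) and BomS5 at -0.19 (adjusted p = 0.253). Drsl5, of the Drosomycin family, stood at 0.31 (adjusted p = 0.113). None of the 24 tested genes of immune recognition and signalling was called, 4 were higher and none lower at an unadjusted p under 0.05, and their median difference was 0.06.

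**Figure D2:**
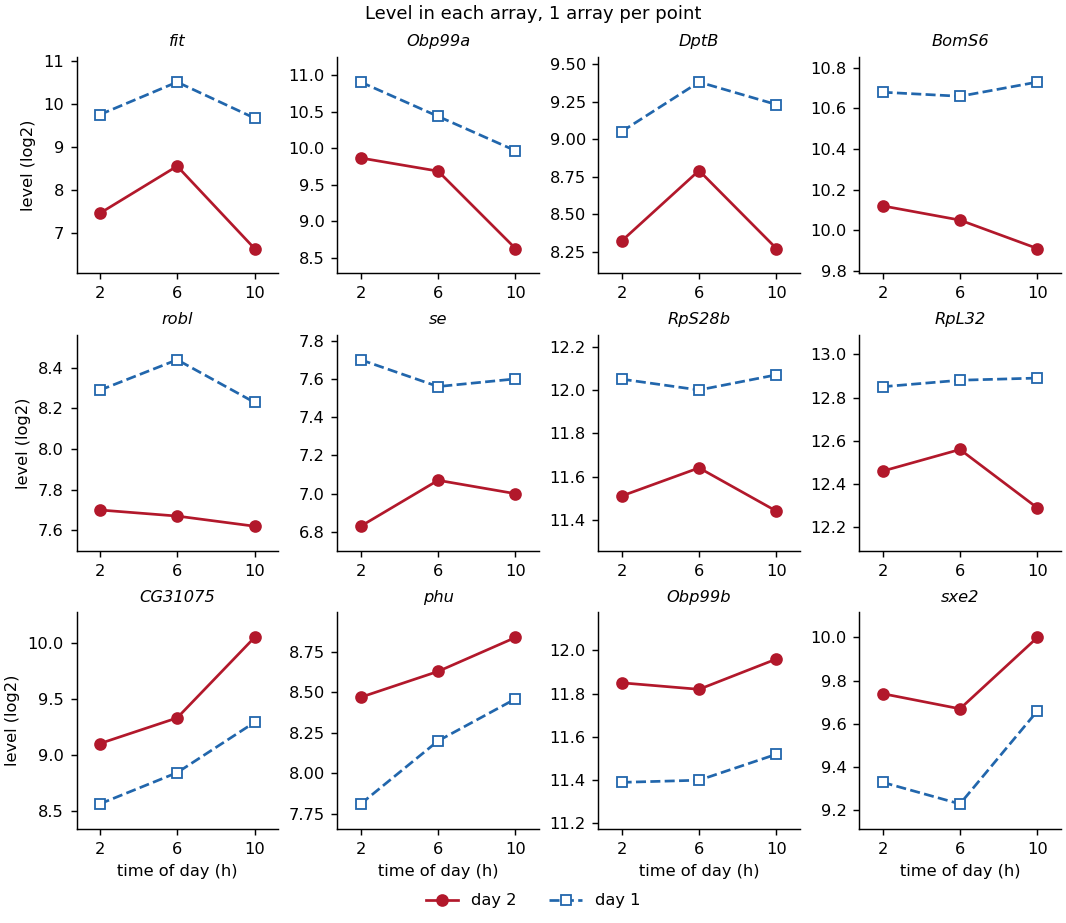
Level (log2, vertical axes differ between panels) at 2, 6 and 10 h of time of day (horizontal axis) for 12 called genes, 1 array per point. Filled circles with solid lines are day 2 and open squares with dashed lines are day 1. fit, Obp99a, DptB, BomS6, robl, se, RpS28b and RpL32 lie lower on day 2 at each hour, and CG31075, phu, Obp99b and sxe2 lie higher.

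Genes for proteins of the cytosolic ribosome formed the list with the most falls, where 0.305% of all tested probe sets fell. Of 31 tested members 5 fell and none rose: RpS28b by 0.51, RpLP2 by 0.51, RpS12 by 0.46, RpL32 by 0.43 and RpS27A by 0.36. RpS28b had levels of 11.51, 11.64 and 11.44 on day 2, against 12.05, 12.00 and 12.07 on day 1 (adjusted p = 0.00958). RpL32, which is much used as a loading control under its older name rp49, had levels of 12.46, 12.56 and 12.29 on day 2, against 12.85, 12.88 and 12.89 on day 1 (adjusted p = 0.0282). In each of the 5 genes the days did not overlap, and the day 2 arrays were more spread than those of day 1, with the 10 h array the lowest. Across the list the median difference was -0.17, against -0.0033 over all tested probe sets, and 90.3% of members were below 0, against 51.6%. The median was -0.17 in the 2 h pair, -0.08 in the 6 h pair and -0.20 in the 10 h pair. Other members were near 0: RpL3 stood at 0.07 (adjusted p = 0.658), RpLP1 at -0.05 (adjusted p = 0.755) and RpLP0 at -0.03 (adjusted p = 0.871). RpL24-like, a ribosome assembly factor outside the list, fell by 0.45 (adjusted p = 0.0248).

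Mitochondrial lists leaned the same way with smaller differences. Of 64 tested genes for proteins of the mitochondrial ribosome none was called, 17 were lower and none higher at an unadjusted p under 0.05, and the median difference was -0.10 with 79.7% below 0. The lowest p belonged to mRpS18A, at 6.47, 6.51 and 6.32 on day 2 against 6.88, 6.75 and 6.91 on day 1 (difference -0.41, adjusted p = 0.054), followed by mRpS28 (difference -0.34, adjusted p = 0.0628). Of 65 tested genes of oxidative phosphorylation none was called, 14 were lower and none higher at an unadjusted p under 0.05, and the median difference was -0.07 with 76.9% below 0. UQCR-14, a subunit of respiratory complex III, had levels of 9.70, 9.72 and 9.58 on day 2, against 9.96, 10.06 and 10.03 on day 1 (difference -0.35, adjusted p = 0.0555). Tim9a, a chaperone for proteins bound for the inner mitochondrial membrane, was called. It had low levels of 4.67, 4.92 and 4.61 on day 2, against 5.40, 5.16 and 5.37 on day 1, and fell by 0.58 (SE 0.10, adjusted p = 0.0374).

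A length dependence was looked for after these values were seen. Gene span, the distance from start to end of the gene in the RefSeq table, was known for 9933 of the tested probe sets (89%). Probe sets of genes with a span of up to 1000 bases (n = 1152) had a median difference of -0.034 and 66.6% were below 0, those over 2000 and up to 5000 bases (n = 2873) had a median of 0.031 and 37.2% below 0, and those over 10000 bases (n = 2215) a median of -0.025 and 60.8% below 0. The shortest class stood at 0.001 in the 2 h pair, -0.017 in the 6 h pair and -0.093 in the 10 h pair. Spans of up to 1000 bases made up 38.7% of the cytosolic ribosomal list, 57.8% of the mitochondrial ribosomal list and 41.5% of the oxidative phosphorylation list, against 11.6% of all tested probe sets with a span. Of the 34 called falls, 27 (79.4%) had a span, and 63% of these 27 had a span of up to 1000 bases. The other called falls had no span, so this share does not cover all of them. The part of gene span in the differences of these lists and in the called falls was not tested.

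The remaining named falls came from diverse genes. robl encodes a light chain of the motor protein dynein, and had levels of 7.70, 7.67 and 7.62 on day 2, against 8.29, 8.44 and 8.23 on day 1. The groups were well apart, and robl fell by 0.66 (SE 0.06, adjusted p = 0.00283). se (sepia) encodes the enzyme that makes a precursor of the red eye pigments, which the brown mutation of this strain keeps out of the eye. Its levels were 6.83, 7.07 and 7.0 on day 2, against 7.70, 7.56 and 7.60 on day 1, and it fell by 0.65 (SE 0.08, adjusted p = 0.00522). It was the only call among 13 tested eye pigment genes, whose median difference was 0.01. Ssb-c31a, a transcriptional coactivator that binds DNA, fell by 0.55 (adjusted p = 0.0282), and UK114, of the RidA family of enamine and imine deaminases, fell by 0.44 (adjusted p = 0.0207). Pfdn5, a subunit of the chaperone prefoldin, fell by 0.35 (adjusted p = 0.0482) and lay closest to the threshold among the called falls. Phyhd1 and CG12116 fell by 0.54 and 0.53 with values that overlapped between the days, and both were at their lowest at 10 h of day 2. The uncharacterised or less known genes CG42336, CG7214, CG11741, CG11458, CG18327, CG33941 and CG2811 fell by 0.38 to 0.62. Without the block for time of day, 6 of the falls in this group were not called, namely Phyhd1, CG12116, CG11741, CG11458, CG18327 and Pfdn5, with adjusted p between 0.0595 (Pfdn5) and 0.21 (CG12116). A further probe set of CG42336 stood at -0.11 (adjusted p = 0.418), so this gene rests on 1 of its probe sets. The last 7 falls were of probe sets with no gene name in the annotation used here.

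Rises were few. CG31075, which encodes an aldehyde dehydrogenase, had levels of 9.10, 9.33 and 10.05 on day 2, against 8.56, 8.84 and 9.29 on day 1. It climbed from 2 to 10 h on each day and was higher on day 2 at each hour, with overlap between the days as a whole, and it rose by 0.59 (SE 0.07, adjusted p = 0.00507). phu followed a like course, at 8.47, 8.63 and 8.84 on day 2 and 7.81, 8.20 and 8.46 on day 1, without overlap, and rose by 0.49 (adjusted p = 0.0155). With Obp99b, sxe2, vri and a probe set without a gene name, these were all the rises called. Without the block for time of day, CG31075 (adjusted p = 0.267), phu (adjusted p = 0.164) and sxe2 (adjusted p = 0.164) were not called, nor was vri. Genes next in line by p included P5cr-2, an enzyme of proline synthesis (difference 0.38, adjusted p = 0.0502), Est-Q, an esterase (0.38, adjusted p = 0.0589), Usp8, a deubiquitinase (0.34, adjusted p = 0.0628), and Lsd-1, a perilipin on the surface of lipid droplets (0.32, adjusted p = 0.0644). For P5cr-2, Est-Q and Lsd-1 every day 2 value lay above every day 1 value; Usp8 climbed from 2 to 10 h on each day and overlapped. Across all tested probe sets, 10.2% had day 2 wholly above day 1 and 9.31% wholly below.

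Within the core clock, vri rose on day 2 and the other tested members did not pass the test. vri encodes the bZIP repressor of Clk transcription. It had levels of 8.34, 8.74 and 9.23 on day 2, against 8.04, 8.20 and 8.81 on day 1. The transcript climbed through the cryophase on both days, and the day 2 array was the higher at each hour, by 0.30 at 2 h, 0.54 at 6 h and 0.42 at 10 h. The mean rise was 0.42 (SE 0.07, adjusted p = 0.0263), or 1.34-fold, and it was not called without the 6 h pair (0.36, adjusted p = 0.406) or without the block for time of day (adjusted p = 0.416).

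tim, whose protein partners PER, had levels of 8.93, 8.93 and 9.38 on day 2, against 8.98, 8.47 and 8.80 on day 1. The days were level at 2 h and apart at 6 and 10 h, with a mean difference of 0.33 (SE 0.10, adjusted p = 0.214). A second tested probe set of tim, at a lower signal, stood at -0.18 (adjusted p = 0.664). per had levels of 6.10, 6.14 and 6.64 on day 2, against 6.12, 5.88 and 6.46 on day 1 (difference 0.14, adjusted p = 0.402). The differences were 0.11 for cyc (adjusted p = 0.445), 0.08 for cry, the blue-light receptor (adjusted p = 0.593), 0.07 for the activator Pdp1 (adjusted p = 0.741) and 0.02 for the repressor cwo (adjusted p = 0.933), a gene for which another probe set stood at -0.12. By the brightest probe set of each gene all 7 tested clock genes were above 0, where 51.6% of all tested probe sets were below 0. Of the 7, 3 were above 0 in every pair, as were 18.7% of all tested probe sets. The second tested probe sets of tim and cwo, and the untested Clk, were below 0. Both cwo and Pdp1 changed sign in some alternative fits. The list's median of 0.11 was made up of -0.02 at 2 h, 0.06 at 6 h and 0.18 at 10 h. Clk lay below the filter on low signal and was not tested. Its values were 4.31, 4.03 and 3.80 on day 2, against 4.50, 4.68 and 4.04 on day 1, lower on day 2 in each pair. Of 6 tested partners of the clock proteins, such as the kinase gene dco, which stood at 0.15 (adjusted p = 0.305), none was called and dco alone had an unadjusted p under 0.05, and their median difference was 0.02.

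**Figure D3:**
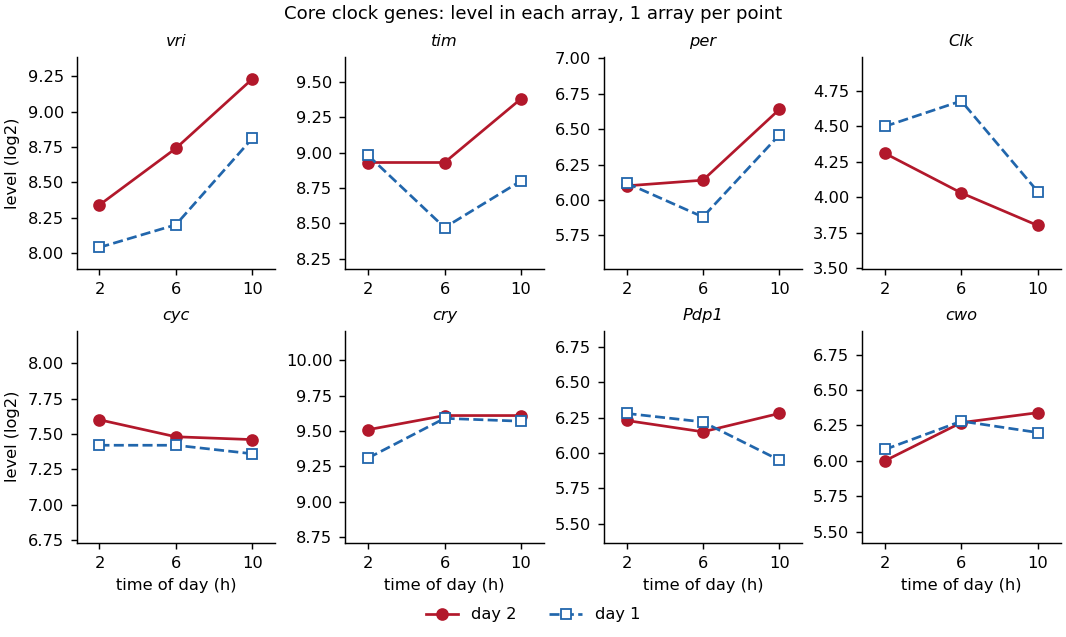
Level (log2; each vertical axis spans 1.5 log2) of the 8 core clock genes at 2, 6 and 10 h of time of day, 1 array per point, with day 2 as filled circles and day 1 as open squares. vri lies higher on day 2 at each hour, tim and per are level with day 1 at 2 h, and Clk, which lay below the filter, is lower on day 2 at each hour.

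Several lists of metabolic genes were above 0 without a call. Of 71 tested cytochrome P450 genes, a family that acts on toxins, hormones and fatty acids, none was called, 15 were higher and 2 lower at an unadjusted p under 0.05, and 28 were above 0 in every pair (18.7% of all tested probe sets were). Their median difference was 0.06. The lowest p among those that were higher belonged to Cyp28d1, at 10.82, 10.84 and 10.91 on day 2 against 10.60, 10.48 and 10.70 on day 1 (difference 0.26, adjusted p = 0.122), and Cyp6g1, known from insecticide resistance, was at 0.27 (adjusted p = 0.122). Of 42 tested genes of carbohydrate metabolism none was called, 13 were higher and 3 lower at an unadjusted p under 0.05, and the median difference was 0.07, between 0.08 and 0.10 in each pair. The starch-digesting amylase gene Amy-d had levels of 9.02, 8.84 and 9.06 on day 2, against 8.52, 8.64 and 8.67 on day 1 (difference 0.37, adjusted p = 0.0628). The maltase gene Mal-B2 stood at 0.27 (adjusted p = 0.117), the sugar transporter gene sut1 at 0.26 (adjusted p = 0.12) and fbp, the fructose-1,6-bisphosphatase of gluconeogenesis, at -0.26 (adjusted p = 0.117). Pepck1, which acts earlier in gluconeogenesis, had the opposite sign to fbp, at 0.23 (adjusted p = 0.14). In lipid metabolism none of 43 tested genes was called, with 6 higher and 2 lower at an unadjusted p under 0.05, and ATPCL, which supplies acetyl-CoA for fatty acid synthesis, stood at 0.25 (adjusted p = 0.138) beside the Lsd-1 value above.

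Of 20 tested phototransduction genes, which carry the light response of the eye, none was called. Before adjustment 7 were higher and 2 lower at a p under 0.05, 9 were above 0 in every pair, and the median difference was 0.05. Among all tested probe sets 6.94% were higher and 7.11% lower at that p, and 18.7% were above 0 in every pair. These shares are to be set beside the counts of the other lists too. The light-activated channel gene trpl had levels of 10.78, 10.92 and 10.97 on day 2, against 10.46, 10.65 and 10.73 on day 1 (difference 0.28, adjusted p = 0.0851), and the second channel gene trp stood at 0.19 (adjusted p = 0.22). The scaffold gene inaD, which holds these proteins together, was at 0.22 (adjusted p = 0.148). Among neuropeptides AstC stood at 0.23 (adjusted p = 0.163) and Crz at 0.18 (adjusted p = 0.237), with none of 24 called and 2 higher and 3 lower at an unadjusted p under 0.05. Of 15 tested heat shock and chaperone genes none was called, and the small heat shock gene l(2)efl, at -0.24 (adjusted p = 0.145), was the only member with an unadjusted p under 0.05. In muscle, Tm2, a tropomyosin, was at -0.31 (adjusted p = 0.0785) and Mlc2, a myosin light chain, at -0.26 (adjusted p = 0.134), with none of 21 called, 1 higher and 4 lower at an unadjusted p under 0.05, and a median of -0.05. No member of the other lists, which covered the takeout family, ER folding, a stress peptide of the Turandot family, glutathione and UDP-glycosyl transferases, antioxidant enzymes, starvation and insulin signalling, digestive proteases, reproductive tract transcripts, neurons, glia, aromatic amino acids and amines, amino acid breakdown, proteasome, ribosome biogenesis, cuticle, activity-induced genes, and histones and cell cycle, was called. Each had between 0 and 5 members higher and between 0 and 5 lower at an unadjusted p under 0.05, and their medians lay between -0.07 and 0.06.

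**Figure D4:**
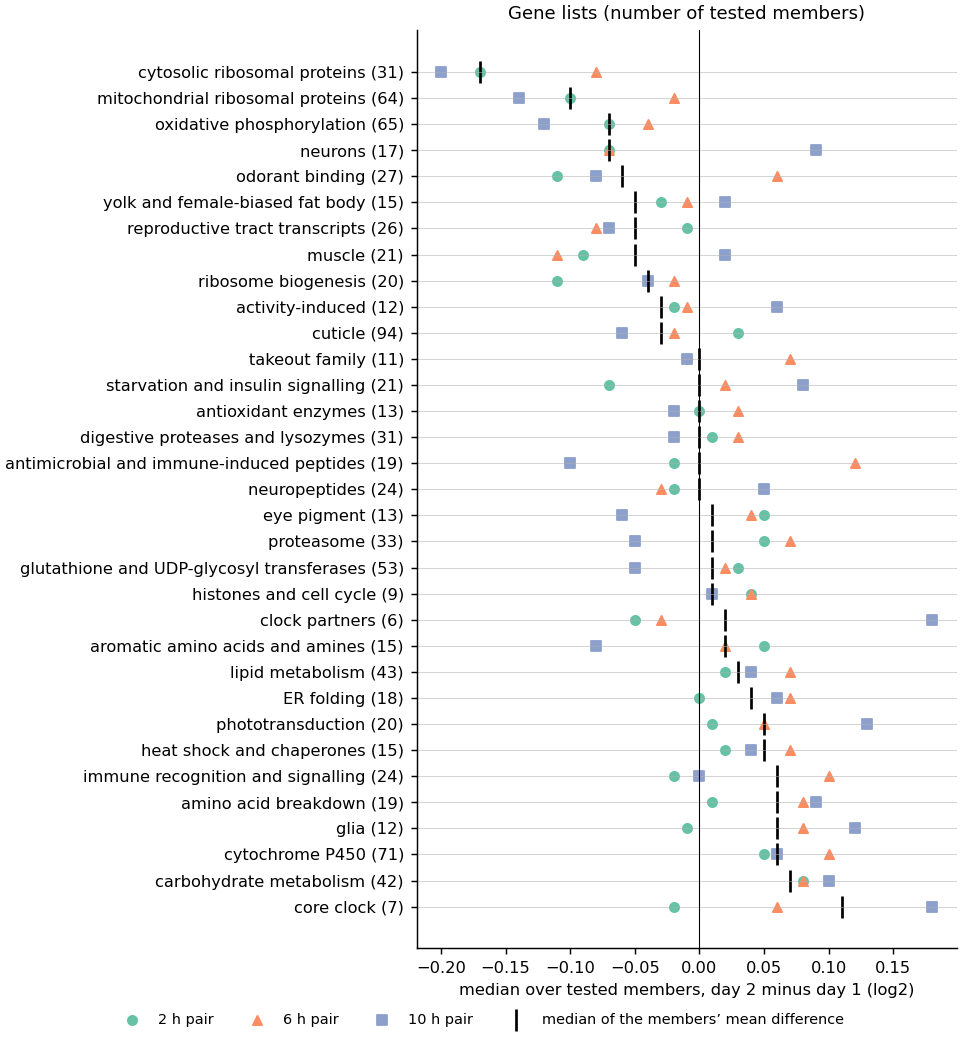
Median day difference (day 2 minus day 1, log2, horizontal axis) over the tested members of each gene list with 5 or more of them, whose number stands beside its name. Circles, triangles and squares give the 2, 6 and 10 h pairs, and black bars the median of the members' mean differences. The ribosomal and oxidative phosphorylation lists are below 0 in every pair, and cytochrome P450 and carbohydrate metabolism above 0 in every pair. Reproductive tract transcripts and ribosome biogenesis are also below 0 in every pair. Lipid metabolism, phototransduction, heat shock and chaperones, amino acid breakdown, and histones and cell cycle are also above 0 in every pair.

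Markers of the tissues of the head were measured as a check on the labelled source and on its makeup. Photoreceptor markers were abundant, with 3 of 6 on the array at mean levels from 11.07 to 13.11 over all arrays, and their summed level was 14.10 to 14.18 on day 2, against 13.98 to 14.10 on day 1. Muscle, neuron, glia, gut, hemocyte and ovary markers had mean pair differences of the summed level between -0.08 and 0.12. Of the male reproductive tract markers, 4 of 5 lay below the median level of the arrays. None of the 4 ovary markers lay below it, with mean levels from 5.95 to 7.01. The neuronal marker elav lay below the filter, at 3.38, 3.23 and 3.06 on day 2 against 3.30, 3.16 and 3.13 on day 1, and its probe set gives no check. The part of tissue makeup in the calls was not tested.

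The 6 arrays of the subjective thermophase, taken at 14, 18 and 22 h of the same days, show how far the day difference extended beyond the cryophase. All 34 probe sets that fell in the cryophase had a negative mean difference in the thermophase, against 47.1% of all tested probe sets, and all 34 were negative in each of the 3 thermophase pairs, against 10.8%. In their own fit of the thermophase arrays 4 of the 34 were called, with 4 probe sets (0.0359%) called lower and 1 (0.00896%) called higher in all. fit differed by -2.59 there (adjusted p = 6.23e-07), Obp99a by -0.86 (adjusted p = 0.0133) and DptB by -0.81 (adjusted p = 0.0133), close to their cryophase values. Over the 34 the median difference was -0.53 in the cryophase and -0.46 in the thermophase. The 6 rises were less uniform. phu, the called rise of the thermophase, stood at 0.82 there (adjusted p = 0.0146), CG31075 stood at 0.29 (adjusted p = 0.63) and sxe2 at 0.20 (adjusted p = 0.913). Obp99b was at -0.02, vri at -0.05 and the unnamed probe set at -0.15.

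The difference of the day effect between the phases was itself tested with an interaction term over all 12 arrays. limma called no probe set (0%), and 288 (2.58%) had an unadjusted p under 0.05. The 6 called rises were selected by their cryophase difference, which is itself part of the interaction. Their unadjusted p is therefore biased low and lends no support to a difference between the phases. Of the 6, 5 had an interaction at an unadjusted p under 0.05. This p was 0.000728 for vri, 0.00339 for the probe set with no gene name, 0.00346 for Obp99b, 0.0176 for CG31075 and 0.0213 for phu, whose interaction was negative, and each had an adjusted p of 0.999. For vri the 3 thermophase pairs stood at 0.01, -0.10 and -0.05, so the higher level of day 2 was measured in the cryophase arrays, and a difference between the phases was not established by the adjusted test.

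**Figure D5:**
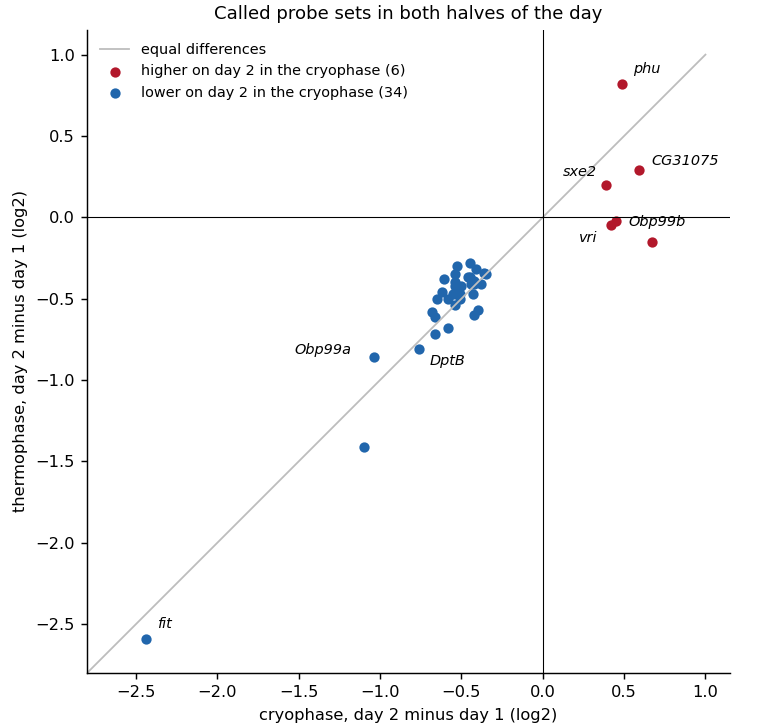
Day difference (day 2 minus day 1, log2) of the 40 called probe sets in the cryophase (horizontal axis, the arrays of the call) and in the thermophase (vertical axis, separate arrays), with red points for rises and blue points for falls in the cryophase. The 34 falls lie below 0 on both axes near the line of equal differences, while vri and Obp99b lie near 0 in the thermophase.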

How the data were processed

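Head RNA of cn bw flies was hybridized to 12 Affymetrix Drosophila Genome 1 arrays, 1 per collection. The deposited values are log2 levels from the authors' RMA run (version not given in the sources used here). RMA corrects for background, forces all arrays to a common distribution and combines the probes of a set. A change common to most transcripts is therefore hidden. No scanner files were used here, and the number of arrays limits the precision.

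The 44 control probe sets were left out. Of the tested 11156 probe sets, 9965 had exactly 1 symbol, from the platform annotation updated through the RefSeq gene table (Release 6 plus ISO1 MT). Probe sets with several symbols or none were not named, and no sequences or coordinates are given.

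Levels of 3 day 2 and 3 day 1 arrays were compared with limma 3.58.1 (lmFit, eBayes; R 4.3.3), two-sided, with time of day as a block (2 residual degrees of freedom, 7.99 prior). A call is a Benjamini-Hochberg adjusted p under 0.05. The pairing comes from the design, since arrays of a pair share the time of day; their deviations from the day means correlated at -0.01 (2 h), 0.17 (6 h) and -0.05 (10 h). The labels name no separate cultures, and the p-values then reflect only how far these arrays scatter, which may be technical. The phases were compared by an interaction contrast over 12 arrays. The 34 gene lists are described by counts and medians, each gene entering through its brightest probe set. Procedures were tested on simulated data.

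The members and lists were chosen with earlier results of these data known. Genes named are the 15 largest rises and falls called, completed to 15 by the lowest unadjusted p, the core clock genes, and up to 4 members of each list at an unadjusted p under 0.05. Other named genes are remaining calls, list members shown for contrast and genes said to be chosen after their values were seen. Among the genes named for contrast outside this rule are BomS2, BomT2, BomS5, RpL3, RpLP1, RpLP0, Yp1 and Cyp4d21. Alternatives were no block, all 12 arrays, all arrays but the 22 h pair, other filters, median centring, quantile normalization, array weights, a mean-variance trend, robust eBayes, a linear scale and leaving out each pair.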

Additional observations from a re-analysis of the deposited data

Results flagged for a closer look

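For 3 named genes every cryophase pair moved one way between the days and every thermophase pair the other. Of all tested probe sets, 18.7% were above 0 and 17.1% below 0 in every cryophase pair. In every thermophase pair 14.4% were above 0 and 10.8% below 0, and the share with opposite signs was not counted. The 3 genes were picked by this pattern, so their unadjusted p lends it no further support. slgA, a proline dehydrogenase, stood at 0.16 in the cryophase and -0.10 in the thermophase, a difference between phases of 0.26 on the log2 scale (unadjusted p = 0.0322, limma adjusted p = 0.999). A second tested probe set of slgA did not share this pattern: it stood at 0.12 in the cryophase and 0.11 in the thermophase, where 2 of its 3 pairs were above 0, with a difference between phases of 0.01 (unadjusted p = 0.921). Acp1, a gene for an adult cuticle protein that its symbol had placed in the list of reproductive tract transcripts, stood at -0.25 and 0.12, a difference of -0.38 (unadjusted p = 0.01, adjusted p = 0.999). Lip3, a lipase gene of the starvation list, stood at -0.14 and 0.10, a difference of -0.24 (unadjusted p = 0.0259, adjusted p = 0.999). None of the 3 day differences in the cryophase was itself called, and none of the differences between phases passed adjustment.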

How the results depend on the processing

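With 34 falls and 6 rises in the fit as reported, there were 14 falls and 1 rise with all 12 arrays, 52 and 10 with all arrays but the 22 h pair, 58 and 16 with a mean above the 40th percentile as filter, 90 and 39 with array weights, and 89 and 32 with a mean-variance trend. Leaving out a pair gave 5 to 608 falls and 0 to 342 rises, with 1 residual degree of freedom. Without the replicate block there were 33 falls and 4 rises, and 29 of the 40 calls were kept (Obp99a and 4 of the 6 rises were among those lost); with median centring 24 and 6, and 30 were kept. All 40 called probe sets kept their sign in each of these fits in which they were tested. The interaction called 0 probe sets without the 22 h pair, with either other filter, with median centring, quantile normalization or array weights, and without each of the 6 pairs; it was not run with the other alternatives. Over 446 comparisons of the 32 genes called, 109 lost the call and 0 changed sign. Over 1380 comparisons of 99 other named genes 148 gained a call and 3 changed sign: cwo was at 0 with array weights and between -0.05 and 0.06 with a pair left out, and Pdp1 between -0.06 and 0.14 with a pair left out. The causes were not tested. The smallest difference called with these 3 pairs was 0.35 on the log2 scale.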
